A study of Mus musculus with 6 samples.

Results

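The collagen chain genes are those whose symbol is Col, a type number, the letter a and a chain number, and they were taken from the array's platform annotation through probe sets with exactly 1 symbol. The array held 82 such probe sets for 42 collagen genes, out of 45101 probe sets and 18194 genes in all. The cells were myoblasts, the dividing precursors of muscle fibres, taken from the hindlimb muscles of 9- to 15-week-old male mice of the C57BL/6JRj strain. They were cultured for 72 hours on dishes coated with fibronectin (3 samples) or with collagen I (3 samples), all in Ham's F-10 with 20% serum and 2.5 ng/ml basic fibroblast growth factor. There was no uncoated dish, so each change is that between the coatings. The comparison asked how the substrate altered the collagen genes that the cells themselves transcribed, and it was described by collagen class.

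Collagens are trimers of chains wound into a triple helix from repeats of glycine and 2 further residues. Fibrillar collagens (types I, II, III, V, XI, XXIV and XXVII) form or seed fibrils, and type V sets fibril diameter together with types I and III. Type IV forms the sheet of the basement membrane that wraps each muscle fibre and its stem cells, type VI forms beaded filaments next to it, and type VIII forms short-chain networks. FACIT collagens sit on the surface of fibrils, multiplexins such as Col18a1 lie in basement membranes, and transmembrane collagens are held in the cell surface. In muscle tissue, interstitial fibroblasts are known as the main makers of types I and III, whereas type V collagen made by muscle stem cells is known to help keep them quiescent.

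The sequences upstream of the transcription start are shown for Col8a1 and Col5a1, the collagen genes with the largest rises on fibronectin, and for Col25a1, whose brightest probe set fell by the most. Each is the 250 bases before the start in the RefSeq promoter table of build GRCm38.p6, with the letters of the GC box GGGCGG, in either orientation, in capitals. They lie at chr16:57754738-57754987 on the minus strand (Col8a1), chr2:27886175-27886424 on the plus strand (Col5a1) and chr3:130180595-130180844 on the plus strand (Col25a1). The fourth sequence is the 22 bases at chr8:11312805-11312826, plus strand, from the annotated start of Col4a2 to that of Col4a1, which lie on opposite strands and overlap by these bases.
Col8a1: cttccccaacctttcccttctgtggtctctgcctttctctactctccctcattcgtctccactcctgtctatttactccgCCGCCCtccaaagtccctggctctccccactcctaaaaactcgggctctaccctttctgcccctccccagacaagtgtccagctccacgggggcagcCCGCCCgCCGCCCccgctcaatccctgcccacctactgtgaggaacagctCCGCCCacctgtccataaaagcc
Col5a1: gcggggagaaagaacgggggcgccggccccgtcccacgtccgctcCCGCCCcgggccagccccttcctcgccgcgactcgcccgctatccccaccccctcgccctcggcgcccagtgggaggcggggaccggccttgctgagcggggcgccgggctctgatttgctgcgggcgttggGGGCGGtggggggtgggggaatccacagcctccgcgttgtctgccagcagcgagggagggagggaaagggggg
Col25a1: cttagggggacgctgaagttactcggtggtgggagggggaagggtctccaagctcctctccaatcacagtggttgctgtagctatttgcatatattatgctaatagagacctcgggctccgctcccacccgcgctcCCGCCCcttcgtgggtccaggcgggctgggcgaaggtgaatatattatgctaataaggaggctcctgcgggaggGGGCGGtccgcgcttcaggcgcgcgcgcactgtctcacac
Col4a1 and Col4a2 starts: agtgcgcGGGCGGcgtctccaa

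The GC box was present in 22 of 38 promoter entries of collagen genes (57.9%) and in 32.7% of all 32851 entries of the same length. Col8a1 held 4 copies, and Col5a1 and Col25a1, which moved in opposite directions, held 2 each. The E-box letters CANNTG, which muscle transcription factors of the MyoD family bind, were in 19 of the 38 entries (50%) and in 66.2% of all entries. Col8a1 held 2 of them, Col5a1, Col4a1 and Col4a2 held none in this window, and Col3a1 held 4. The CCAAT box (CCAAT) was in 13 entries, or 34.2%, against 33.8% of all. The TATA box (TATAAA) was in 13.2% of collagen entries and 12.4% of all, the AP-1 site (TGANTCA) in 2.63% and 6.75%, and the MCAT box (CATTCC) in 10.5% and 12.6%. Both strands were searched and each motif was counted on its own, so matches of different motifs may overlap. Of the 42 collagen genes on the array, 33 had an entry.

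Values are the deposited log2 probe set signals, so a difference of 1 is a doubling. A gene was read through its probe set with the highest mean, and it was tested if that mean over the 6 samples reached 2.33, the median of all probe sets. Of the 42 collagen genes 18 were tested and 24 lay below that filter. With limma and Benjamini-Hochberg adjustment over all 10941 genes tested, 12 of the 18 (66.7%) passed an adjusted p of 0.05, set against 40.1% of all tested genes. Among them 7 were higher and 5 lower on fibronectin, where 19.9% and 20.2% of all tested genes were, and 4 of the 18 (22.2%) passed with a change of at least 1.5-fold, against 5.23% of all. All 4 were higher, as were 1.55% of all tested genes by that measure, while 3.67% were lower. Col5a3, counted among the 5 lower genes, reached the filter only through the collagen samples. In 12 of the 18 (66.7%) the samples did not overlap between coatings, against 53.3% of all tested genes. The median log2 change was 0.10 over the 18 collagen genes and 0.00 over all tested genes. Centring each sample on its median gave the same 7 higher and 5 lower collagen genes by count, while the split over all genes went from 2173 higher and 2211 lower to 2973 and 1646. Across all probe sets samples correlated at 0.997 to 0.998 within a coating and at 0.994 to 0.995 between coatings. The labels do not say whether the samples were separate cultures or animals, so p-values reflect sample-to-sample spread here, some or all of which could be technical.

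**Figure D1:**
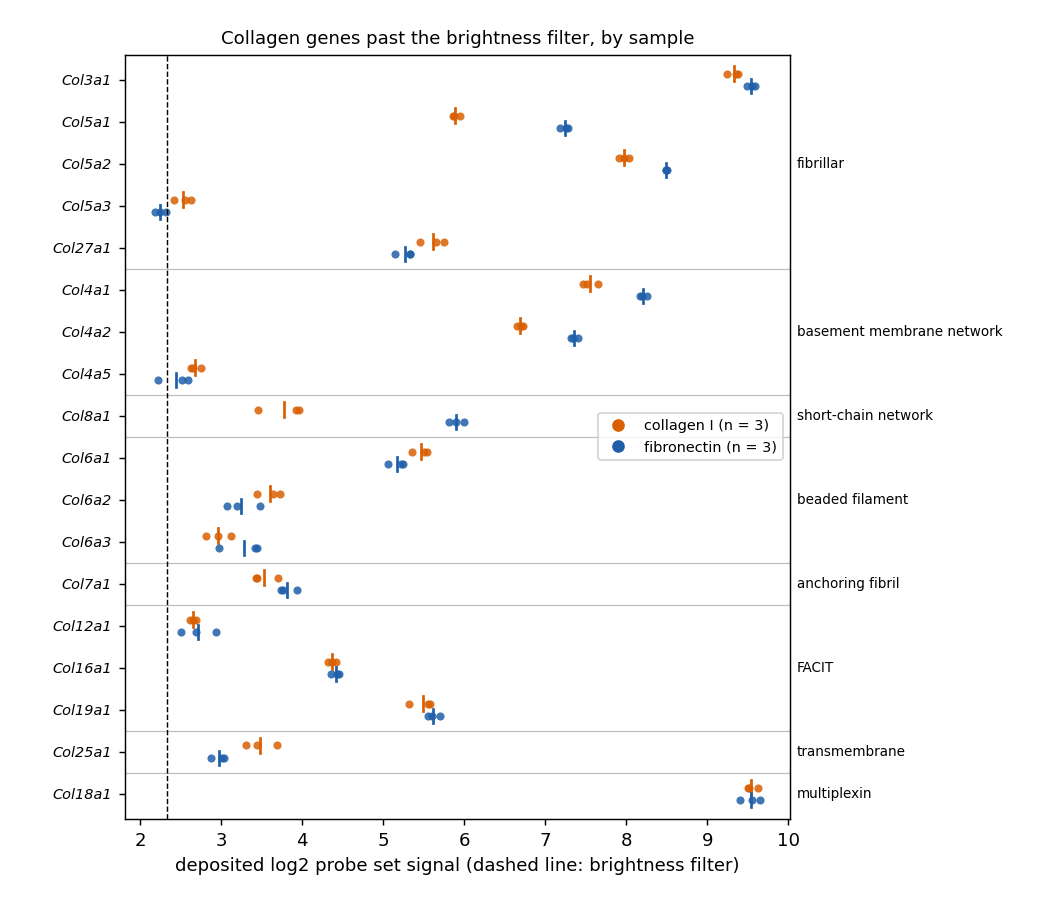
Deposited log2 signal (x axis) of the 18 tested collagen genes (y axis, grouped by class) in each of the 3 samples per coating, with a tick at each group's mean and a dashed line at the filter of 2.33. Col8a1 and Col5a1 show the widest gaps between coatings, and the samples of Col18a1, Col16a1 and Col12a1 overlap.

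Fibronectin-grown cells had higher signals for the main type V chains and slightly higher signals for type III, and lower signals for Col5a3 and Col27a1. All 5 tested fibrillar collagens passed the test, 3 of them higher and 2 lower, with a median log2 change of 0.21. Of the lower pair, Col5a3 was tested only through its collagen samples. Col5a1 (Entrez gene 12831), the chain found in nearly all type V trimers, measured 5.87, 5.86 and 5.95 on collagen I and 7.29, 7.26 and 7.18 on fibronectin. The coatings did not overlap, and the gap was far wider than the spread within either. The change was 2.54-fold (log2 SE 0.05, 95% confidence interval 1.23 to 1.46, limma adjusted p = 8.81e-06). Col5a2 (Entrez gene 12832), its usual partner, went from 8.04, 7.97 and 7.91 to 8.50, 8.50 and 8.49, with every fibronectin sample above every collagen sample. That was a 1.43-fold rise (log2 SE 0.05, limma adjusted p = 0.00017).

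Col5a3 (Entrez gene 53867), a further type V chain of narrower distribution, went the other way. Its values were 2.42, 2.55 and 2.63 on collagen I and 2.19, 2.32 and 2.25 on fibronectin, without overlap (log2 change -0.28, SE 0.07, limma adjusted p = 0.011). The fibronectin mean of 2.25 lay under the filter, so this was the 1 tested collagen near the floor on a coating. Col5a3 reached the filter only through the collagen samples, where it was higher, and its place in the counts rests on them. Its call was lost with an intensity trend and robust variance, at an adjusted p of 0.0534, and over its alternatives the adjusted p ran from 0.00407 to 0.0534. A second Col5a3 probe set, below the filter, went the other way, with means of 0.79 on collagen I and 0.96 on fibronectin.

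Col3a1 (Entrez gene 12825), the type III chain of fine reticular fibrils, measured 9.36, 9.38 and 9.24 on collagen I and 9.48, 9.58 and 9.55 on fibronectin. The groups were separate but close, with a 1.16-fold rise (log2 SE 0.05, limma adjusted p = 0.0163). The call was lost without fibronectin replicate 2 (log2 change 0.19, adjusted p = 0.0581) and without fibronectin replicate 3 (0.21, 0.0516). It was also lost with no filter (0.0518) and with averaged probe sets (0.0661), and its adjusted p over all alternatives ran from 0.00152 to 0.0661. Col27a1 (Entrez gene 373864), a fibrillar collagen best known from cartilage, measured 5.65, 5.75 and 5.46 on collagen I and 5.15, 5.33 and 5.34 on fibronectin. All fibronectin samples were lower, at a log2 change of -0.35 (SE 0.09, limma adjusted p = 0.0142).

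Both chains of the common basement membrane collagen rose on fibronectin, and by nearly the same amount. Col4a1 (Entrez gene 12826) measured 7.47, 7.52 and 7.66 on collagen I and 8.17, 8.26 and 8.19 on fibronectin, a 1.58-fold rise (log2 change 0.66, SE 0.06, limma adjusted p = 0.000163). Col4a2 (Entrez gene 12827), which joins Col4a1 in the same trimer, measured 6.72, 6.65 and 6.70 against 7.32, 7.40 and 7.35 (log2 change 0.66, SE 0.05, limma adjusted p = 5.38e-05). Neither gene overlapped between coatings. Of the type IV chains of specialised membranes only Col4a5 was tested. Col4a5 (Entrez gene 12830) measured 2.66, 2.63 and 2.75 on collagen I and 2.51, 2.59 and 2.23 on fibronectin, each fibronectin sample being lower. Its log2 change of -0.24 (95% confidence interval -0.45 to -0.02) did not pass, at a limma adjusted p of 0.0752. It passed without fibronectin replicate 2 (-0.31, adjusted p = 0.0382), and over its alternatives the adjusted p ran from 0.0382 to 0.187. Col4a3, Col4a4 and Col4a6 lay below the filter, with means between 0.79 and 1.42, and the samples of Col4a3 (lower on fibronectin) and Col4a6 (higher) did not overlap.

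The largest change of any tested collagen was that of Col8a1 (Entrez gene 12837), a short-chain collagen of networks that is known from vessel walls and from injured tissue. It measured 3.45, 3.96 and 3.92 on collagen I and 6.00, 5.90 and 5.81 on fibronectin. The coatings were far apart, and the collagen samples spread more than the fibronectin samples (SD 0.28 against 0.10, n = 3 each). The rise was 4.36-fold (log2 change 2.12, SE 0.13, 95% confidence interval 1.83 to 2.42, limma adjusted p = 3.17e-05). Its partner chain Col8a2 and the related Col10a1, the collagen of hypertrophic cartilage, lay below the filter with means of 0.59 and 1.26. Col7a1 (Entrez gene 12836), the anchoring fibril collagen known from skin, measured 3.45, 3.43 and 3.70 on collagen I and 3.76, 3.93 and 3.75 on fibronectin. The groups were just separate, and the rise was 1.22-fold (log2 change 0.29, SE 0.09, limma adjusted p = 0.0317). It no longer passed once collagen replicate 1 was dropped (0.25, adjusted p = 0.0924), nor without collagen replicate 2 (0.24, 0.103), without fibronectin replicate 1 (0.31, 0.0541), without fibronectin replicate 2 (0.23, 0.097) or with no filter (0.079). Its adjusted p over all alternatives ran from 0.00781 to 0.103.

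Of the chains Col6a1, Col6a2 and Col6a3, which assemble together as type VI collagen and whose loss causes muscle disease, the first pair passed as lower on fibronectin and Col6a3 did not pass. Col6a1 (Entrez gene 12833) measured 5.54, 5.50 and 5.36 on collagen I and 5.07, 5.22 and 5.25 on fibronectin, all lower, at a log2 change of -0.29 (SE 0.07, limma adjusted p = 0.0121). Col6a2 (Entrez gene 12834) measured 3.73, 3.44 and 3.64 against 3.48, 3.07 and 3.20, and here 1 fibronectin sample lay above the lowest collagen sample. Its log2 change was -0.36 (SE 0.11, limma adjusted p = 0.0377). Col6a2 no longer passed without collagen replicate 1 (-0.29, adjusted p = 0.114), collagen replicate 3 (-0.34, 0.0951), fibronectin replicate 2 (-0.27, 0.108) or fibronectin replicate 3 (-0.33, 0.104), nor with no filter (0.0881) or with all probe sets as the unit (0.0508). Over its alternatives the adjusted p ran from 0.0045 to 0.114. Col6a3 (Entrez gene 12835), the longest of these chains, measured 2.96, 2.81 and 3.12 on collagen I and 2.98, 3.45 and 3.42 on fibronectin. Fibronectin replicate 1 sat among the collagen samples while the other two were higher, and the log2 change of 0.32 did not pass (95% confidence interval 0.01 to 0.62, limma adjusted p = 0.0934). Without fibronectin replicate 1 it was 0.47 with an adjusted p of 0.00911, with array weights it was 0.38 with 0.049, and over the alternatives the adjusted p ran from 0.00911 to 0.25. Col6a4 and Col6a5 were below the filter, at means of 1.11 and 0.43.

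Of the remaining classes, Col25a1 (Entrez gene 77018), a transmembrane collagen known for its part in motor nerve contacts with developing muscle, was lower on fibronectin by its brightest probe set. It measured 3.31, 3.44 and 3.68 on collagen I and 3.01, 3.03 and 2.88 on fibronectin, with no overlap (log2 change -0.51, SE 0.09, limma adjusted p = 0.00435). This was the largest fall of the tested collagens by the brightest probe set, but with averaged probe sets (-0.26 against -0.42) and without collagen replicate 3 (-0.40 against -0.43) Col27a1 fell by more. None of the 3 tested FACIT collagens, of 9 on the array, passed, with a median log2 change of 0.06. Col19a1 (Entrez gene 12823), which is made in embryonic muscle, measured 5.32, 5.55 and 5.58 against 5.55, 5.70 and 5.60 (log2 change 0.13, 95% confidence interval -0.05 to 0.31, limma adjusted p = 0.208). Col16a1 (Entrez gene 107581) changed by 0.04 (-0.07 to 0.16, adjusted p = 0.496), and Col12a1 (Entrez gene 12816), a collagen of load-bearing tissue, by 0.06 (-0.17 to 0.29, adjusted p = 0.654). Without fibronectin replicate 1 the change of Col12a1 was -0.05. Col18a1 (Entrez gene 12822), the multiplexin whose end fragment is endostatin, measured 9.50, 9.51 and 9.62 on collagen I and 9.41, 9.55 and 9.65 on fibronectin. The groups overlapped fully, with a log2 change of -0.01 whose 95% confidence interval was -0.17 to 0.16 (limma adjusted p = 0.945). Its direction turned with samples centred (0.05), with array weights, and without collagen replicate 3 (0.03) or fibronectin replicate 1 (0.06).

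**Figure D2:**
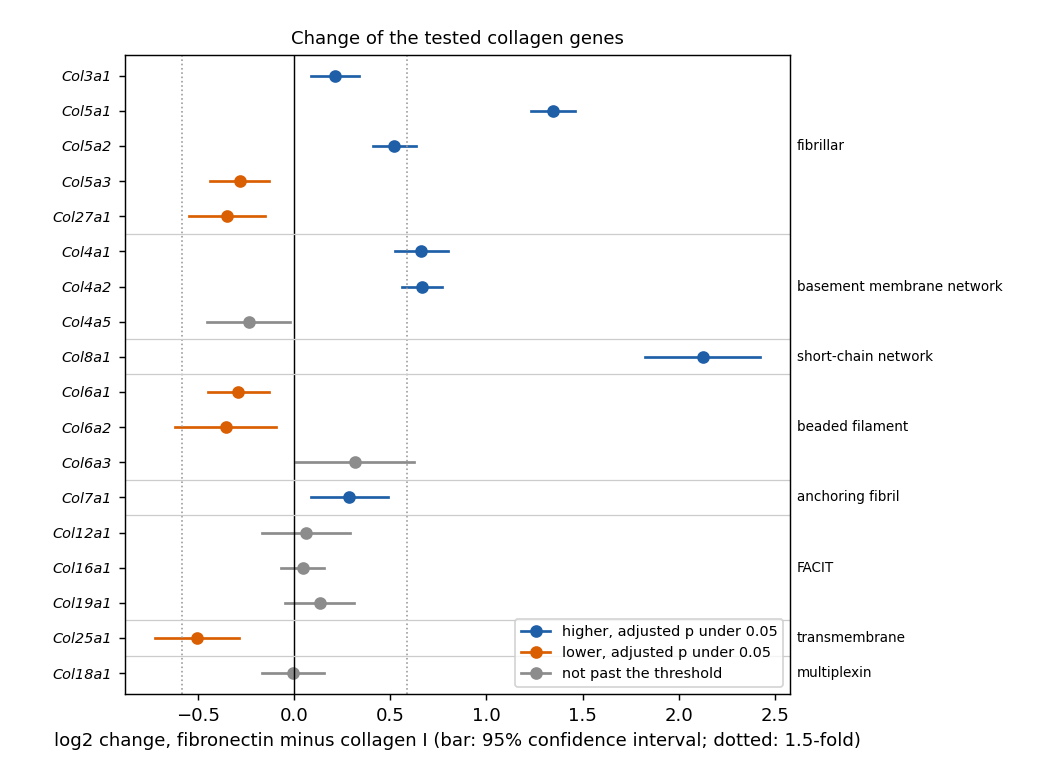
Log2 change between coatings (x axis) of the 18 tested collagen genes (y axis, by class), with the point at the estimate, the bar for its 95% confidence interval and dotted lines at 1.5-fold. Col8a1, Col5a1, Col4a1 and Col4a2 lie beyond the dotted line on the right, and no collagen lies beyond the line on the left.

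The type I chains, the most abundant collagen of interstitial matrix, were near the floor on both coatings. Col1a1 measured 0.69, 0.69 and 0.70 on collagen I and 0.85, 0.73 and 0.71 on fibronectin, and its second probe set had a mean of 0.51. Col1a2 measured 1.80, 1.42 and 1.39 against 1.90, 2.08 and 1.64, and its other probe sets had means of 0.51 and 0.60. All 5 type I probe sets lay below the filter. The type II and XI chains of cartilage fibrils were also dim, with means of 1.39 for Col2a1, 0.42 for Col11a1 and 1.42 for Col11a2.

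The 24 collagens below the filter had means from 0.42 to 2.29, with 7 of them under 1, 15 between 1 and 2, and 2, Col20a1 and Col24a1, above 2. Their coating means differed by at most 0.34, and values so near the floor cannot show how large a change was. Besides those named by class above they were the FACIT collagens Col9a1, Col9a2, Col9a3, Col14a1, Col20a1 and Col22a1, the transmembrane Col13a1, Col17a1 and Col23a1, the multiplexin Col15a1, and Col26a1. Col24a1, a fibrillar collagen of bone, was the 1 untested collagen whose mean reached the filter on a coating. It measured 2.41, 2.34 and 2.33 on collagen I and 2.30, 2.30 and 2.04 on fibronectin, a difference of -0.15 without overlap. In 5 of the 24 (20.8%) the samples did not overlap between coatings, against 11.2% of all genes below the filter, and 3 of these were higher and 2 lower on fibronectin. In a limma fit without the filter, where 18.2% of 18194 genes passed, 0 of the 24 passed the adjusted threshold and 2, Col11a2 and Col4a3, had an unadjusted p under 0.05. That fit called 9 of all 42 collagens (21.4%), 5 higher and 4 lower.

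**Figure D3:**
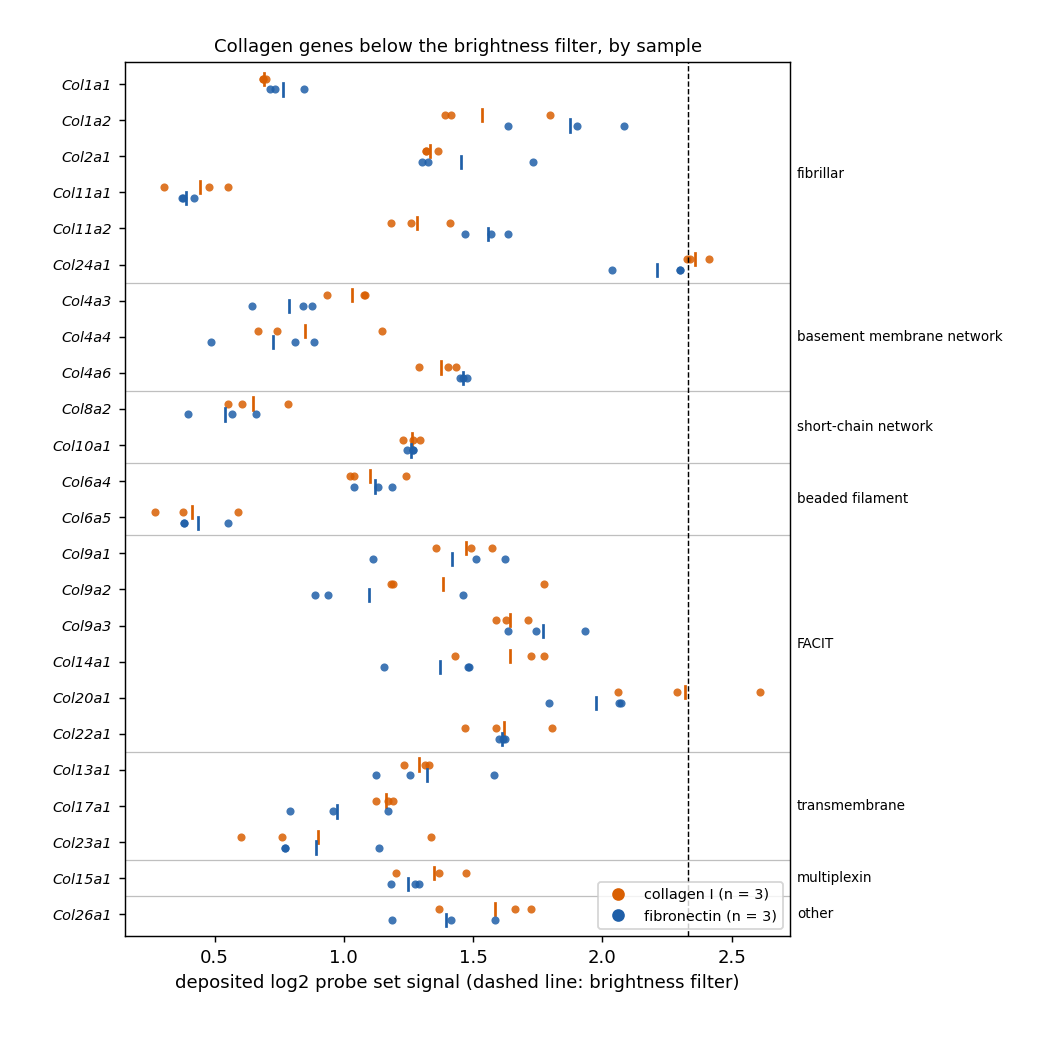
Deposited log2 signal (x axis) of the 24 collagen genes below the brightness filter (y axis, by class) in the 3 samples of each coating, with ticks at group means and a dashed line at 2.33. Nearly all points lie left of the line, and the exceptions are samples of Col20a1 and Col24a1 on collagen I.

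The tested probe sets of a gene agreed in direction more than in size. With probe sets as the unit, 29 of the 82 collagen probe sets were tested and 18 passed (62.1%, against 31.9% of all 22551), 12 of them higher and 6 lower. In the 10 genes with more than 1 tested probe set the signs agreed in 10, while all probe sets passed in 5, some in 3 and none in 2. The same shares over all genes were not computed. In Col3a1, Col18a1 and Col25a1 the agreement in sign rests on a probe set that changed by only 0.02, -0.01 and -0.02. Col8a1 rose 4.36-fold by the brightest probe set and 2.58-fold by the second, from 2.62, 2.35 and 2.56 to 3.89, 3.93 and 3.81, and the third lay below the filter. Col5a1 rose 2.54-fold, 2.03-fold and 1.47-fold by 3 probe sets of falling brightness. Averaging probe sets gave log2 changes of 1.32 for Col8a1 and 0.97 for Col5a1, and both kept an adjusted p under 0.05. Col4a1 had changes of 0.66 and 0.63, Col5a2 of 0.52 and 0.55, and Col27a1 of -0.35 and -0.48, and all of these probe sets passed.

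For 3 genes the answer depended on the probe set. A second Col3a1 probe set measured 4.69, 4.79 and 4.78 on collagen I and 4.74, 4.79 and 4.79 on fibronectin, a change of 0.02 that did not pass (adjusted p = 0.766) beside the 0.21 of the brighter one (adjusted p = 0.0265). A second Col25a1 probe set changed by -0.02 (adjusted p = 0.861) beside -0.51, and averaging gave -0.26. In Col18a1 the second probe set fell by 0.19 (adjusted p = 0.0498) and the first changed by -0.01 (adjusted p = 0.95). Neither Col6a2 probe set passed in this fit, at -0.36 (adjusted p = 0.0508) and -0.46 (adjusted p = 0.0664). These adjusted p come from limma over all 22551 probe sets.

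**Figure D4:**
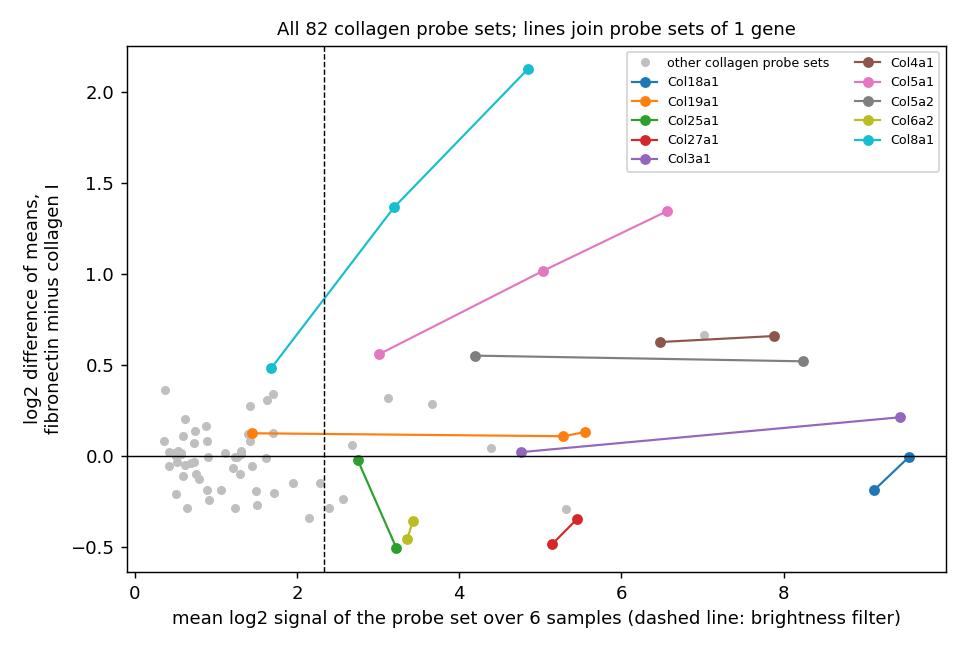
Log2 difference between coatings (y axis) against the mean log2 signal over 6 samples (x axis) of all 82 collagen probe sets, with lines joining the probe sets of each of the 10 genes that had more than 1 above the filter (dashed line). The differences of Col8a1 and Col5a1 grow with brightness, whereas those of Col4a1 and Col5a2 stay level.

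Chains that share a trimer or lie side by side in the genome were compared within samples as the difference of their log2 signals, which shows unequal change and not that a chain stayed level. The 8 pairs with both members tested were computed, with an exact two-sided permutation test over samples whose smallest p is 0.1, so none could pass the threshold. Col4a1 minus Col4a2 was 0.86 ± 0.10 on collagen I and 0.85 ± 0.01 on fibronectin (SD, n = 3), a difference in change of -0.0041 (exact p = 0.9, adjusted over the pairs 0.9). These are the neighbours whose starts are shown above. Col6a1 and Col6a2, also neighbours, differed in change by 0.07 (exact p = 0.9), and their differences in change from Col6a3 were -0.61 and -0.67.

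In 6 pairs the samples did not overlap between coatings, and each of those had the smallest exact p of 0.1, or 0.133 adjusted over the 8. No share over other gene pairs was computed, and among single tested genes 53.3% did not overlap. The pairs also join chains whose own changes were read from these same samples, so this count is not a result about partner chains. Col5a1 gained 0.83 on Col5a2 and 1.63 on Col5a3, so that Col5a1 minus Col5a2 went from -2.17, -2.12 and -1.96 to -1.21, -1.24 and -1.31. Col5a2 gained 0.81 on Col5a3. Since Col5a3 was under the filter on fibronectin, the sizes of both differences against it rest on a value near the floor. The gain on Col5a2 also depended on the probe set, since the probe sets of Col5a1 changed by 1.35, 1.02 and 0.56 and those of Col5a2 by 0.52 and 0.55. Col3a1 and Col5a2, which have no protein-coding gene between them in GRCm38.p6, both passed as higher but not equally, with Col5a2 ahead by 0.31 (Col3a1 minus Col5a2 at -0.31). Over the samples left out 1 at a time these 6 differences kept their signs.

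The genes that make, process, bind or degrade collagen were grouped by function and read against the 40.1% of all tested genes that passed, 19.9% higher and 20.2% lower. Of 20 tested genes of folding, modification and secretion 7 passed, which is below that share, 4 of them higher and 3 lower, with a median log2 change of 0.01. P4ha1, a catalytic subunit of prolyl hydroxylase, went from 6.44 ± 0.07 to 6.83 ± 0.03 (SD, n = 3; limma adjusted p = 0.000803), a 1.31-fold rise. Plod2, which hydroxylates the lysines of the chain ends, likewise rose 1.31-fold, and the matrix protein Sparc, which binds collagens, rose 1.4-fold. Serpinh1, the collagen chaperone of the endoplasmic reticulum, rose 1.23-fold. P4ha3, another prolyl hydroxylase subunit, fell 1.68-fold, and Fkbp14 and Tmem38b, which act in collagen folding and in calcium release of the endoplasmic reticulum, had log2 changes of -0.25 and -0.29.

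Of 5 tested genes of propeptide processing and crosslinking 2 were higher and none lower, a share close to that of all tested genes, namely Pcolce2 (1.32-fold) and Pcolce (1.19-fold), which enhance removal of the C-terminal propeptide. The protease itself, Bmp1, had a log2 change of -0.05, and the crosslinking enzyme Lox lay below the filter. Of 7 measured collagen-degrading enzymes 4 (Ctsk, Mmp2, Mmp8 and Mmp9) lay below the filter, and the 3 tested were lower, with Mmp14 at -0.30 and Mmp16 at -0.15. The collagenase Mmp13 went from 3.72 ± 0.24 to 1.64 ± 0.12 (SD, n = 3). Mmp13 reached the filter only through the collagen samples. Its place among the 3 rests on that coating, and the size of its fall rests on a value near the floor. Of 4 tested receptors the discoidin receptor Ddr2 rose 1.24-fold, while Ddr1 (-0.27) and the uptake receptor Mrc2 (-0.34) fell and the integrin subunit Itgb1 changed by 0.01 without passing. The collagen-binding integrin subunits Itga1, Itga2 and Itga10 lay below the filter. Among 3 tested fibril-associated proteins the proteoglycan Bgn fell 1.81-fold, and Ogn and Podn did not pass.

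**Figure D5:**
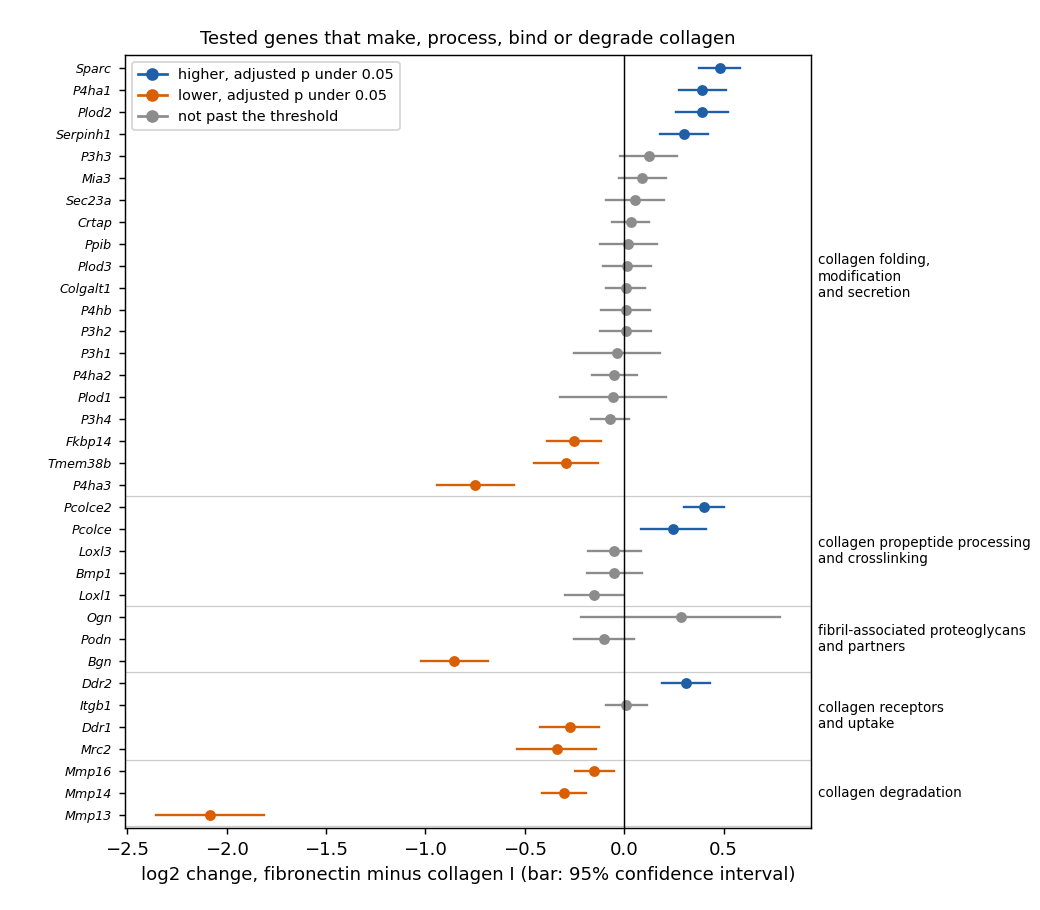
Log2 change between coatings (x axis) with its 95% confidence interval for the 35 tested genes that make, process, bind or degrade collagen (y axis, by list). Blue points rose, orange points fell and grey points did not pass. All 3 tested degrading enzymes are orange. Mmp13 lies farthest left, at a size that rests on a fibronectin mean of 1.64, below the filter, and it was tested only through its collagen samples.

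The cells carried markers of myoblasts, and most of the fibroblast markers measured lay below the filter, while some pericyte and smooth muscle markers were bright. Of 6 myoblast markers 5 were above the filter, with means on collagen I and fibronectin of 10.10 and 10.04 for Myod1, 8.89 and 8.77 for Pax7 and 8.41 and 8.49 for Myf5, none of which passed. The other two passed in opposite directions, the adhesion molecule Cdh15 higher by 0.24 and the intermediate filament Des at -0.23. Of 7 measured markers of fibroblasts and fibro-adipogenic cells 5 lay below the filter, with Pdgfra at 1.12 and 1.70, Dcn at 1.96 and 1.63, and Lum at 0.37 and 0.39. Of the remaining pair, Cd34, which myogenic stem cells also carry, was higher (2.20 and 2.79, with the collagen mean below the filter) and Thy1 was lower (2.71 and 2.38). Cd34 reached the filter only through the fibronectin samples, where it was higher, and the size of its rise rests on a value near the floor. The summed linear signal of all 7 was 22 to 23 units on collagen I and 22.3 to 26.8 on fibronectin. Most of the 7 lay below the filter, so this sum is largely signal near the floor and cannot show the amount of such cells. The samples of Pdgfra (higher on fibronectin) and Dcn (lower) did not overlap, as in 11.2% of all genes below the filter, and those of Dpt, Lum and Tcf21 overlapped. Of 4 tendon cell markers only Scx was above the filter (3.08 and 2.86, not past the threshold), and all 5 endothelial markers were below it. Of the immune markers Cd68 fell (4.63 and 3.36), Csf1r did not pass (-0.03), and Ptprc, a general marker of white blood cells, was at 0.47 and 0.53. Of the 5 pericyte and smooth muscle markers Rgs5 fell (9.07 and 7.84), Acta2 rose by 0.21 (9.84 and 10.06) and Cspg4 did not pass (-0.35). The other 2, Pdgfrb (1.57 and 1.63) and Myh11 (1.51 and 1.52), lay below the filter. Of the Schwann cell markers Ngfr fell (4.64 and 3.25) and Sox10 did not pass (0.05). Markers of differentiating muscle moved with the coating. All 5 tested were lower on fibronectin, against 20.2% of all tested genes, by a median log2 change of -0.83. The summed linear signal of all 6 measured was 236 to 251 on collagen I and 91.7 to 122 on fibronectin. Whether differentiation or any of these cell types had a part in the collagen changes was not tested, and fewer cells of a type cannot be told apart from less RNA per cell in these samples.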

How the data were processed

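The deposited values are log2 probe set signals of a mouse expression array, made by the authors with Affymetrix Expression Console and RMA, per the submitters' processing notes. RMA corrects background, normalises across arrays and summarises probe sets. Software versions and scan dates were not stated there, so no batch was tested. The values ran from -0.17 to 12.7, with sample medians from 2.30 to 2.39. The labels give no depth for arrays, so the 3 samples per coating limit the precision.

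Groups came from the sample titles. The platform annotation gave 34945 probe sets with 1 gene, and 18032 of 18194 genes were found in the GRCm38.p6 gene table, which updated symbols. Fits used limma 3.58.1 in R 4.3.3 (lmFit and eBayes, two-sided, no covariates), with 4 residual and 3.81 prior degrees of freedom. Permutation tests used scipy 1.17.1, and figures matplotlib 3.10.9. The fit was also run on simulated data with independent normal noise (10941 genes, 200 changed). There 88% of simulated 1.5-fold changes and 100% of 2-fold changes were recovered, with 10 false calls among 185. Far more genes passed in the data themselves (4384), so these shares need not hold for the calls above. Classes, lists and members were chosen with earlier results of these data known. All tested collagens were named, and up to 4 passing members of each other list by smallest p, while Serpinh1, Fkbp14, Tmem38b and the members that did not pass were named after their values were seen. Genes on the lists with no single-gene probe set were not analysed here. Alternatives were other filters, scalings, probe set rules, variance models, array weights, a replicate block and leaving out each sample.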

Additional observations from a re-analysis of the deposited data

How the results depend on the processing

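Of the 18 tested collagens, 10 kept their direction and their side of the threshold under every alternative run for them (Col4a1, Col4a2, Col5a1, Col5a2, Col6a1, Col8a1, Col16a1, Col19a1, Col25a1 and Col27a1). With all probe sets as the unit each gene was still read by its brightest probe set, so this does not cover its other probe sets. The call of Col25a1 rests on its brightest probe set, since the second changed by -0.02 (limma adjusted p = 0.861). The calls that changed are given beside each gene above. A filter at the 75th percentile tested 9 collagens and passed 7, 2 of them lower, in place of 12 and 5. With that filter 3579 of all 7021 genes tested passed, a larger share than the 40.1% of the main fit. Leaving out 1 sample at a time gave 10 to 12 collagen calls, with 5 to 7 higher and 4 to 5 lower, and 3431 to 4137 calls over all genes. Class medians changed from 0.21 (fibrillar), 0.66 (basement membrane) and 0.06 (FACIT) to 0.27, 0.71 and 0.11 with samples centred, which shifts every gene by 0.05. The fibrillar median was 0.12 with averaged probe sets, and the FACIT median 0.10 with quantile normalisation again. The difference in change of Col4a1 and Col4a2, close to 0, turned to 0.0025 with quantile normalisation and ran from -0.059 to 0.045 over the samples left out, and that of Col6a1 and Col6a2 ran from -0.044 to 0.24. Over the samples left out the change of Col12a1 ran from -0.052 to 0.16 and that of Col18a1 from -0.065 to 0.058, and Col18a1 was at 0.047 with samples centred and at 0.00032 with array weights. Same-numbered samples had correlations of deviations of 0.10, -0.01 and 0.08, and 3 of 6 samples correlated best with their own number. The labels do not say whether shared numbers pair the samples, and 3 samples per coating are too few to tell. With the replicate block 7 collagens were higher and 5 lower, and 4178 genes passed in place of 4384. Dim probe sets limit the size of any change, and 24 collagens lay below the filter.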
